A study of Mus musculus with 6 samples.

Results

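The 9 genes described here encode pattern-recognition and uptake receptors of macrophages: the scavenger receptors Msr1, Marco, Cd68 and Scarb1, the efferocytosis receptors Mertk and Axl, and the C-type lectin receptors Clec7a, Clec4e and Clec4d. They were chosen by gene symbol, and all 9 were found among the 56691 genes of the deposited table. The study sequenced total RNA of wild-type (WT) RAW246.7 cells, a mouse macrophage line spelled here as in the labels, in 6 libraries. After a pretreatment with LPS, cells spent 24 h on MSA-DA hydrogels (3 libraries), and the cells they were compared with spent the same time on MSA-ZW hydrogels (3 libraries). Both groups therefore carried the LPS pretreatment, and the 6 libraries include no cells without LPS and none on plastic. The series title names macroporous gels that differ in how much protein they take up, and the fibrin networks that form in them, as the question for macrophages. What MSA, DA and ZW stand for is not spelled out in the labels, and no label tells whether the libraries of 1 gel were grown as separate cultures; p-values therefore measure the spread between these libraries, which may be technical.

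Scavenger receptors bind modified lipoproteins, microbial surfaces and other polyanionic ligands. Msr1 and Marco are class A receptors with a collagen-like stalk, Scarb1 is the class B receptor for high-density lipoprotein, and Cd68 is a heavily glycosylated LAMP family protein found mainly in late endosomes and lysosomes. Efferocytosis is the uptake of apoptotic cells. Mertk and Axl belong with Tyro3 to the TAM receptor tyrosine kinases, which see phosphatidylserine through the bridging ligands Gas6 and protein S and which dampen cytokine and interferon responses. C-type lectins of this class read sugars and glycolipids: Clec7a (Dectin-1) binds fungal beta-glucan, Clec4e (Mincle) binds mycobacterial cord factor and a ligand released by dying cells, and Clec4d (MCL, Dectin-3) binds cord factor and pairs with Clec4e. Clec7a signals through its own cytoplasmic motif, and Clec4e through the Fc receptor gamma chain Fcer1g, to the kinase Syk and the adaptor Card9. Clec4e is known to be induced by LPS in macrophages, whereas Mertk and Axl differ widely between macrophage types.

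Libraries held 14374912 to 18346615 counts on MSA-DA and 16347934 to 18193026 on MSA-ZW. Between 18018 and 18485 genes were detected on MSA-DA and between 18271 and 18691 on MSA-ZW. Mitochondrially encoded RNA took 3.10 to 3.12% of counts on MSA-DA and 2.73 to 2.78% on MSA-ZW, and the ribosomal RNA-like locus Rn18s-rs5 took 0.132 to 0.142% on MSA-DA and 0.237 to 0.449% on MSA-ZW. All 7 macrophage markers were detected, and their summed level was 3466 to 3538 CPM (counts scaled by library size after TMM) on MSA-DA, below the 4180 to 4218 CPM on MSA-ZW. The markers did not move together: Lyz2, Csf1r, Fcgr1 and Spi1 were lower on MSA-DA in every library, Itgam and Ptprc were higher in every library, and Adgre1 overlapped. Lyz2, the most abundant, had 1747 to 1795 CPM on MSA-DA and 2274 to 2323 CPM on MSA-ZW, and Itgam had 131 to 143 CPM on MSA-DA and 118 to 121 CPM on MSA-ZW. The 7 marker lists of other cell types summed to at most 1.87 CPM in any library, with Cd3d, Cd3g, S100a9 and Mpo at 0. Without the ribosomal RNA-like and mitochondrial genes, the calls of the 9 receptor genes were the same 1 higher and 3 lower. The part of the marker difference in the results was not tested, and in bulk libraries fewer cells of a type and less RNA per cell cannot be told apart.

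On MSA-DA, Clec4d RNA was higher, Axl, Scarb1 and Msr1 RNA was lower, Cd68, Clec7a and Clec4e did not pass the test, and Mertk and Marco were at or under the detection floor. The 3 falls were 1.32-fold for Axl, 1.12-fold for Scarb1 and 1.09-fold for Msr1, and the rise of Clec4d was 1.10-fold. The Clec4d call was lost once libraries were corrected for GC content and exonic gene length. The Scarb1 call was lost when any 1 of 3 libraries was left out, as given with each gene. In DESeq2 Axl had no adjusted p and Scarb1 did not pass. Thus 4 of the 7 testable receptor genes passed an adjusted p of 0.05 in edgeR's quasi-likelihood test, 1 higher and 3 lower. Of all 12467 tested genes 13.4% passed, 6.92% higher and 6.5% lower on MSA-DA, and among genes of at least 10 CPM 17.9% passed. The share rests on 7 genes that were listed with earlier results of these data known. The lists of related genes given below were also chosen with those results known, so their shares describe only the genes listed. The changes were small: the median size of a log2 difference was 0.09 over all tested genes and 0.18 over the genes that passed. The median log2 difference of the 7 receptor genes was -0.06, against 0.00 for all tested genes. Without MSA-DA replicate 2 the genes called numbered 1001, and without MSA-DA replicate 3 they numbered 1065, against 1673 with all libraries.

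**Figure D1:**
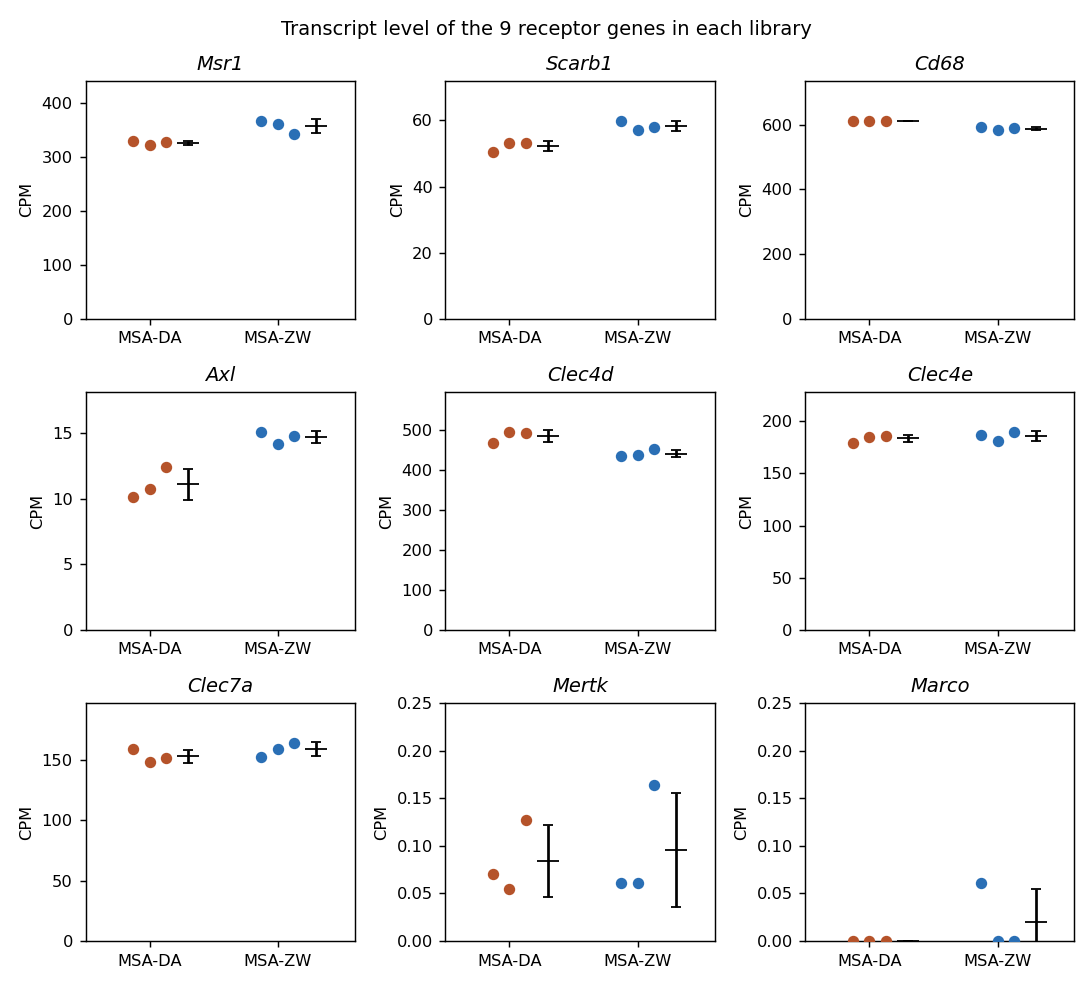
Level in CPM (vertical axis, from 0) of each of the 9 receptor genes in the 3 MSA-DA libraries (left in each panel) and the 3 MSA-ZW libraries (right); dots are libraries, and the bar is the mean with its SD. Clec4d and Cd68 lie higher on MSA-DA in every library, Axl, Scarb1 and Msr1 lie lower in every library, Clec7a and Clec4e overlap, and Mertk and Marco stay under 0.25 CPM. Of all 12467 tested genes, 28.4% had groups that did not overlap, in either direction.

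Per gene length, the levels spanned the detectable range. Cd68 had the highest FPKM (fragments scaled by exonic gene length and library total), 484 ± 0.895 on MSA-DA and 468 ± 5.08 in the MSA-ZW libraries (SD, n = 3 each). Its mean level was at rank 61 of 23514 genes with a value above 0. Clec4d followed at 302 ± 9.96 FPKM on MSA-DA against 276 ± 5.85 FPKM on MSA-ZW, rank 124. Clec7a stood at 57.8 ± 2.08 FPKM on MSA-DA against 60.4 ± 2.13 FPKM on MSA-ZW. Msr1 came next at 51.3 ± 0.648 FPKM on MSA-DA against 56.4 ± 2.02 FPKM on MSA-ZW, and Clec4e at 36.8 ± 0.747 FPKM on MSA-DA against 37.5 ± 0.983 FPKM on MSA-ZW. The remaining genes were far lower. Scarb1 was at 6.13 ± 0.182 FPKM on MSA-DA against 6.88 ± 0.178 FPKM on MSA-ZW, and Axl at 2.19 ± 0.239 FPKM on MSA-DA against 2.92 ± 0.0961 FPKM on MSA-ZW. Clec7a and Msr1 were the closest neighbours: on MSA-ZW the lowest Clec7a library had 58.2 FPKM and the highest Msr1 library 58.19 FPKM, so on that gel their difference was hardly larger than the spread between libraries, whereas on MSA-DA the libraries of the pair were apart. Mertk and Marco, at the bottom, could not be ordered.

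Among the class A scavenger receptors, Msr1 (ENSMUSG00000025044, chr8:40034726-40095714, minus strand, GRCm39) fell slightly. Its level was 330.2, 322 and 328 CPM in the MSA-DA libraries and 368, 361 and 343 CPM in the MSA-ZW libraries. Every MSA-DA library was below every MSA-ZW library, and groups did not overlap for 28.4% of all tested genes. The nearest libraries were MSA-DA replicate 1 and MSA-ZW replicate 3. The log2 difference was -0.13 (SE 0.03), with an edgeR adjusted p of 0.00205. Correcting each library for GC and exonic gene length gave -0.20, with an edgeR adjusted p of 9.48e-07. Marco (ENSMUSG00000026390, chr1:120402267-120432753, minus strand) had 0 counts in all 3 MSA-DA libraries and 1, 0 and 0 counts in the MSA-ZW libraries. A count of 0 allows up to 3 counts, which is 0.164 to 0.21 CPM in the MSA-DA libraries, for counting error only, so a difference in Marco was not detectable at this depth.

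Cd68 (ENSMUSG00000018774, chr11:69555039-69556979, minus strand) had 612, 609.7 and 611 CPM on MSA-DA, against 593, 582 and 589 CPM on MSA-ZW. The groups did not overlap, as was the case for 28.4% of all tested genes, but the log2 difference of 0.06 (SE 0.02, 95% interval 0.01 to 0.11) missed the threshold with an edgeR adjusted p of 0.131 (unadjusted 0.0266). With that GC and length correction it was 0.090 and passed, with an edgeR adjusted p of 0.00982. Its LAMP relatives moved in the same direction: of 4 listed genes 2 were tested, and Lamp1 and Lamp2, the main glycoproteins of the lysosomal membrane, were both higher, by 0.12 and 0.09 on the log2 scale (edgeR adjusted p 0.000136 and 0.017). The Lamp2 call was lost after the GC and length correction (log2 0.03, edgeR adjusted p 0.614) and without any of MSA-DA replicates 1, 2 and 3 or MSA-ZW replicate 2 (edgeR adjusted p 0.0518, 0.1, 0.127 and 0.0936).

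Scarb1 (ENSMUSG00000037936, chr5:125354151-125418158, minus strand) had 50.5, 53.1 and 53.3 CPM in the MSA-DA libraries and 59.95, 57.2 and 58.0 CPM in the MSA-ZW libraries. All 3 MSA-DA libraries were below all 3 MSA-ZW libraries, and 28.4% of all tested genes likewise did not overlap. The log2 difference was -0.16 (SE 0.05, 95% interval -0.26 to -0.06), with an edgeR adjusted p of 0.0258. This call did not hold without MSA-DA replicate 1, MSA-DA replicate 2 or MSA-ZW replicate 1 (edgeR adjusted p 0.103, 0.0536 and 0.0869) or in DESeq2 (adjusted p 0.0845). A predicted gene on the same strand, Gm42633, overlaps Scarb1 and had 4 counts over all libraries.

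Of 15 genes for lipoprotein handling and sterol traffic around Scarb1, 9 were tested, 3 rose and 2 fell, with a median log2 difference of 0.09. The share that passed was 55.6%, against 13.4% of all tested genes. Lpl, the lipase that frees fatty acids from lipoprotein triglyceride, was higher by 1.11-fold, with 668 ± 4.86 CPM on MSA-DA against 604 ± 6.46 CPM on MSA-ZW (edgeR adjusted p 4.34e-05). The partners in lysosomal cholesterol export went in opposite directions: the membrane protein Npc1 was 1.10-fold higher, and its soluble partner Npc2 was lower, at 847 ± 7.53 CPM on MSA-DA against 908 ± 6.09 CPM on MSA-ZW (edgeR adjusted p 0.00589 and 0.00189). The sterol exporter Abcg1 was at 87.8 ± 2.8 CPM on MSA-DA against 98.6 ± 6.37 CPM on MSA-ZW (edgeR adjusted p 0.00753). The Npc1 call was lost without MSA-DA replicate 3 or MSA-ZW replicate 2 (edgeR adjusted p 0.0566 and 0.0594), and the Abcg1 call without MSA-DA replicate 1 or MSA-ZW replicate 2 (0.0508 and 0.0551) and after the GC and length correction (0.0581).

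The other scavenger receptors that passed in edgeR were all lower on MSA-DA. Of 18 listed genes 17 were in the table, 8 were tested, 4 fell and 0 rose, and the median log2 difference was -0.23. The share lower was 50% of those tested, against 6.5% of all tested genes, for a list chosen with earlier results known. The count of rises was also 0 at an unadjusted p under 0.05, in DESeq2 and in limma. The count of falls was only 1 in DESeq2 and in each limma fit on FPKM. Cd36, the class B receptor for oxidised lipoprotein and long-chain fatty acids, had 17.4, 18.3 and 15.7 CPM on MSA-DA and 27.2, 29.0 and 27.4 CPM on MSA-ZW. The groups were far apart, and the level on MSA-ZW was 1.62-fold that on MSA-DA (log2 -0.70, edgeR adjusted p 4.33e-08). The other class B relative, Scarb2, a lysosomal sorting receptor, was at 154 ± 0.938 CPM on MSA-DA against 164 ± 3.94 CPM on MSA-ZW and did not pass (edgeR adjusted p 0.0607). Colec12, a class A relative that carries a C-type lectin domain, differed by -0.01 on the log2 scale (95% interval -0.07 to 0.04, edgeR adjusted p 0.829).

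Calls for the remaining scavenger receptors were less stable. Lrp1, a large endocytic receptor that also takes part in apoptotic cell uptake, was at 747 ± 28.5 CPM on MSA-DA against 846 ± 62.9 CPM on MSA-ZW (edgeR adjusted p 0.000231). Its groups overlapped, with MSA-DA replicate 1 at 777.5 CPM and MSA-ZW replicate 3 at 776.8 CPM. The Lrp1 call was lost after the GC and length correction (log2 -0.07, edgeR adjusted p 0.0797). It was also lost in DESeq2 without independent filtering (adjusted p 0.161) and in limma on log2(FPKM + 1) (adjusted p 0.0856). Cxcl16, a membrane chemokine that also binds oxidised lipoprotein, had 12, 12 and 16 counts on MSA-DA against 32, 22 and 40 counts on MSA-ZW (edgeR adjusted p 0.0137). Its call was lost without MSA-DA replicate 2 or MSA-ZW replicate 3 (edgeR adjusted p 0.105 and 0.0671). Stab1, the clearance receptor stabilin-1, was at 14.0 ± 0.778 CPM on MSA-DA against 17.0 ± 0.713 CPM on MSA-ZW (edgeR adjusted p 0.0335), and lost its call without MSA-DA replicate 1, MSA-DA replicate 2 or MSA-ZW replicate 2 (edgeR adjusted p 0.0934, 0.14 and 0.112), after the GC and length correction (0.202) and with no filter on low counts (0.0581).

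**Figure D2:**
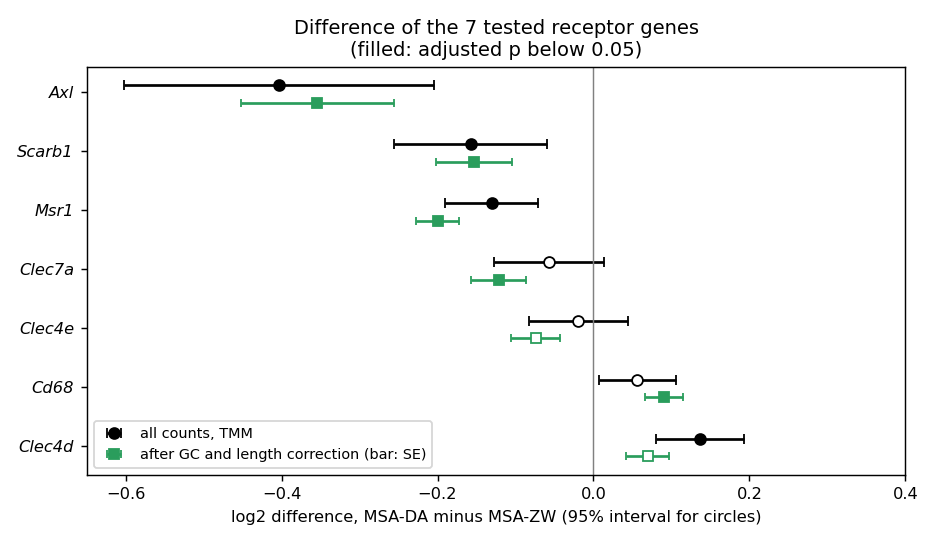
Log2 difference, MSA-DA minus MSA-ZW (horizontal axis), of the 7 tested receptor genes. Circles are from the counts, with 95% intervals, and squares follow a correction for GC content and exonic gene length, with standard errors. Filled symbols passed an adjusted p of 0.05. Axl lies farthest left at -0.40, the correction moves Msr1, Clec7a and Clec4e to lower values and Cd68 to a higher one, and Clec4d keeps its sign but no longer passes.

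Of the efferocytosis receptors, only Axl was expressed at a level that could be tested. Axl (ENSMUSG00000002602, chr7:25456698-25488130, minus strand) had 145, 196 and 196 counts on MSA-DA and 250, 232 and 269 counts on MSA-ZW, which is 10.1, 10.7 and 12.4 CPM on MSA-DA and 15.1, 14.2 and 14.8 CPM on MSA-ZW. All 3 MSA-DA libraries were below all 3 MSA-ZW libraries, as groups did not overlap for 28.4% of all tested genes. The mean on MSA-DA was 11.1 ± 1.196 CPM, against 14.7 ± 0.458 CPM on MSA-ZW. The level fell by 24.4% (log2 -0.40, SE 0.10, 95% interval -0.60 to -0.20, edgeR adjusted p 0.0043). DESeq2 gave Axl no adjusted p. The call was lost in DESeq2 without independent filtering (adjusted p 0.0892) and in limma without a filter on low values (adjusted p 0.145). Mertk (ENSMUSG00000014361, chr2:128540876-128644814, plus strand) had 1, 1 and 2 counts on MSA-DA and 1, 1 and 3 counts on MSA-ZW. Tyro3, the remaining TAM receptor, had 2, 1 and 0 counts on MSA-DA against 2, 0 and 1 on MSA-ZW. Axl was therefore the TAM receptor with detectable RNA above the floor of 3 counts in every library, and no difference in Mertk or Tyro3 was detectable at this depth.

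The ligand Gas6 differed from Axl in the opposite direction. Gas6, which bridges phosphatidylserine to the TAM receptors, had 9.78, 11.6 and 11.5 CPM on MSA-DA and 7.92, 8.75 and 8.34 CPM on MSA-ZW. Its libraries did not overlap either, and the level on MSA-DA was 1.32-fold that on MSA-ZW (log2 0.40, edgeR adjusted p 0.0115), a call that was lost without MSA-DA replicate 2 or 3 (edgeR adjusted p 0.0884 and 0.0642). Pros1, which encodes protein S, was at 17.9 ± 1.36 CPM on MSA-DA against 16.1 ± 1.4 CPM on MSA-ZW and did not pass (log2 0.16, 95% interval -0.02 to 0.34, edgeR adjusted p 0.272).

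Of 14 listed TAM ligands, shedding proteases and feedback genes, 11 were tested and 36.4% of those passed, against 13.4% of all tested genes. With a median log2 difference of -0.09, 1 rose (Gas6) and 3 fell. Among those that fell were Socs3, a cytokine signalling inhibitor, and Adam10, a protease that sheds Axl. Socs3 was at 11.4 ± 0.753 CPM on MSA-DA against 14.9 ± 0.728 CPM on MSA-ZW (edgeR adjusted p 0.00595). Adam10 was at 658 ± 6.79 CPM on MSA-DA against 702 ± 13 CPM on MSA-ZW (edgeR adjusted p 0.00753).

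Among 23 other genes that recognise apoptotic cells, their bridging ligands and "do not eat me" signals, 14 were tested, 2 rose and 4 fell. The share that passed was 42.9%, against 13.4% of all tested genes, and the median log2 difference was -0.05. The integrin subunits Itgb5 and Itgav, which together form a receptor for phosphatidylserine-bound Mfge8, both fell. Itgb5 was at 15.3 ± 0.197 CPM on MSA-DA against 26.8 ± 1.06 CPM on MSA-ZW, 1.75-fold higher on MSA-ZW (edgeR adjusted p 1.76e-09). Itgav was at 105 ± 4.03 CPM on MSA-DA against 125 ± 6.87 CPM on MSA-ZW (edgeR adjusted p 2.89e-05). The inhibitory pair went opposite ways: Sirpa, the receptor that restrains uptake, was at 237 ± 4.09 CPM on MSA-DA against 214 ± 1.79 CPM on MSA-ZW, and its ligand Cd47 was at 134 ± 2.8 CPM on MSA-DA against 150.2 ± 4 CPM on MSA-ZW (edgeR adjusted p 0.000617 and 0.000863). Cd300lf, a phosphatidylserine receptor, was at 13.6 ± 1.3 CPM on MSA-DA against 17.8 ± 0.788 CPM on MSA-ZW (edgeR adjusted p 0.00252), and Gas6 was the other gene that rose. Timd4, C1qa and C1qc had 0 counts in every library.

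Genes for engulfment and corpse handling passed at about the background share, 3 of 24 tested (12.5%) of 27 listed, with a median log2 difference of -0.01. Vav3, a guanine nucleotide exchange factor, was higher by 1.22-fold, with 67.8 ± 2.38 CPM on MSA-DA against 55.5 ± 4.36 CPM on MSA-ZW (edgeR adjusted p 0.000113). Ucp2, a mitochondrial carrier used during corpse digestion, was at 296 ± 3.71 CPM on MSA-DA against 342 ± 8.17 CPM on MSA-ZW (edgeR adjusted p 1.64e-06). Rhog, a small GTPase upstream of Rac, was at 41.2 ± 1.26 CPM on MSA-DA against 47.9 ± 2.45 CPM on MSA-ZW (edgeR adjusted p 0.00644), and its call was lost after the GC and length correction (edgeR adjusted p 0.0802).

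The C-type lectins Clec4d and Clec4e are neighbours on chromosome 6. Clec4d (ENSMUSG00000030144, chr6:123239070-123252224, plus strand) and Clec4e (ENSMUSG00000030142, chr6:123258748-123266829, minus strand) point toward each other, with 6523 bases between their ends, and their products pair on the cell surface. Their promoter windows are printed here because Clec4d passed in edgeR and Clec4e did not. The Clec4d call was lost after the GC and length correction, and a part of the promoters in the contrast was not tested. Each window is the RefSeq sequence from 250 bases before to 50 bases after the start in GRCm38.p6, an older build than the coordinates above, read 5' to 3' in the direction of the gene, with motif matches in capitals. The Clec4d window is chr6:123261857-123262156 on the plus strand and the Clec4e window is chr6:123289822-123290121 on the minus strand.
Clec4d: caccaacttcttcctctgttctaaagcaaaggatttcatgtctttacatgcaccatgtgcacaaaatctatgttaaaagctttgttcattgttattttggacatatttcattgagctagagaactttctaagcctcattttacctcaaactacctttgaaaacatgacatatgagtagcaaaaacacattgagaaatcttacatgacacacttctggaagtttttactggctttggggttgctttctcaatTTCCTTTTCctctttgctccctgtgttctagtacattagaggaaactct
Clec4e: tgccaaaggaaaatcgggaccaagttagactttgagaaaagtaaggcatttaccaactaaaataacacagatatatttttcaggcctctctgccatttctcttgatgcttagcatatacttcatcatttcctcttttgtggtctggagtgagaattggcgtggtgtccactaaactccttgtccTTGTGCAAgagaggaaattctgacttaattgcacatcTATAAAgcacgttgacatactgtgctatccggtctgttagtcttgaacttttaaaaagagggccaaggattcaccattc
The GC content was 36% in the Clec4d window and 40% in the Clec4e window.

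The capitals mark an interferon response motif in Clec4d and a C/EBP motif followed by a TATA box in Clec4e. The motif searched for interferon response, GAAANNGAA, matched the minus strand of the Clec4d window at position 2 counted from the start, and occurred in 8.57% of the windows of 27025 genes. The C/EBP motif TTNNGCAA matched the Clec4e window at position -66 (10.8% of genes), and TATAAA matched at position -29 (14.2% of genes). RefSeq windows were matched for 7 of the 9 receptor genes. The Cd68 window held a C/EBP match at position -43 and AP-1 matches, TGACTCA, at positions -149 and -24 (5.17% of genes), and the Clec7a window held TATAAA on the minus strand at position 43. The windows of Axl, Mertk and Marco held none of the motifs searched. The further motifs searched on both strands were PU.1 (GAGGAAGT, 3.28% of genes), NF-kB (GGGACTTTC, 0.344%), the antioxidant response element (TGACNNNGC, 12.5%), the E-box of TFEB and MITF (CACGTG, 7.24%), STAT (TTCNNNGAA, 8.47%) and the LXR site (AGGTCA, 16%), and no letters of 1 motif match overlapped another in the printed windows. A match describes these letters only.

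Clec4d had 467, 496 and 492 CPM on MSA-DA and 435, 437 and 451 CPM on MSA-ZW. Every MSA-DA library was above every MSA-ZW library, although MSA-DA replicate 1 lay closer to the MSA-ZW libraries than the other MSA-DA libraries did. Groups likewise did not overlap for 28.4% of all tested genes. The mean was 485 ± 15.7 CPM on MSA-DA against 441 ± 9.15 CPM on MSA-ZW (log2 0.14, SE 0.03, 95% interval 0.08 to 0.19, edgeR adjusted p 0.000705). With the GC and length correction it was 0.069 and no longer passed (edgeR adjusted p 0.112). Across all tested genes the log2 difference was related to transcript GC content (Spearman correlation -0.317 over genes, which do not count as independent replicates). The longest Clec4d transcript has 40.4% GC, and whether GC content accounts for its difference was not tested.

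Clec4e did not pass. Its level was 179, 185 and 186 CPM on MSA-DA and 187, 181 and 189.9 CPM on MSA-ZW. The libraries of the groups overlapped, and the log2 difference was -0.02 (SE 0.03, 95% interval -0.08 to 0.04, edgeR adjusted p 0.763).

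The ratio of Clec4d to Clec4e counts compares the neighbours within a library, where depth and scaling cancel. The transcript GC content is 40.4% for Clec4d and 41.4% for Clec4e, whereas the exonic length is 1599 bases for Clec4d and 4965 bases for Clec4e, and the ratio was not corrected for either. The ratio was 2.60, 2.68 and 2.64 in the MSA-DA libraries and 2.32, 2.41 and 2.38 in the MSA-ZW libraries. It averaged 2.64 ± 0.0403 in the MSA-DA libraries and 2.37 ± 0.0471 in the MSA-ZW libraries (SD, n = 3 each), and the groups did not overlap. The ratio was 1.11-fold higher on MSA-DA. The two-sided exact permutation test gave p = 0.1, the smallest value that 3 against 3 libraries allow. Groups of 3 that do not overlap always give this value, so the test adds nothing to the non-overlap. The ratio was chosen after the values had been seen.

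Clec7a (ENSMUSG00000079293, chr6:129438554-129449742, minus strand), in a second lectin run on the same chromosome, had 159, 148 and 152 CPM on MSA-DA and 153, 159.7 and 164 CPM on MSA-ZW. The groups overlapped, and the log2 difference of -0.06 (SE 0.03, 95% interval -0.13 to 0.01) did not pass (edgeR adjusted p 0.325). After the GC and length correction it was -0.12 and passed (edgeR adjusted p 0.0197).

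**Figure D3:**
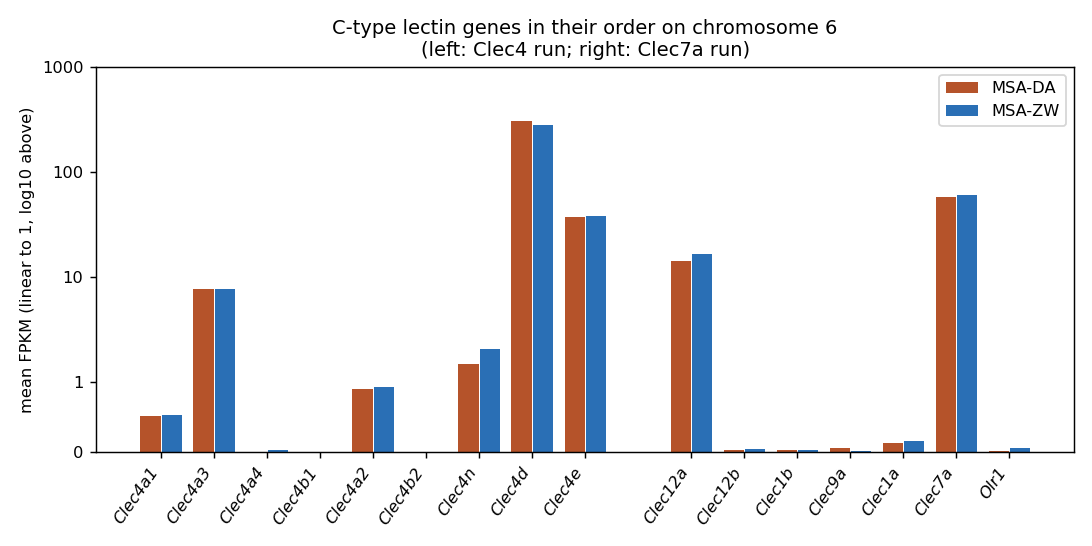
Mean FPKM (vertical axis, linear up to 1 and logarithmic above) of the C-type lectin genes of the Clec4 run (left) and the Clec7a run (right) in their order on chromosome 6, MSA-DA beside MSA-ZW. Clec4d, Clec7a and Clec4e stand above their neighbours on both gels, followed by Clec12a and Clec4a3.

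The neighbours of these lectins within each run were mostly at low levels. In the Clec4 run, which reads Clec4a1, Clec4a3, Clec4a4, Clec4b1, Clec4a2, Clec4b2, Clec4n, Clec4d and Clec4e, Clec4b1 and Clec4b2 had 0 counts and Clec4a4 had 1. Clec4n, which encodes Dectin-2 and adjoins Clec4d, was at 2.12 ± 0.385 CPM on MSA-DA against 2.95 ± 0.963 CPM on MSA-ZW and did not pass (log2 -0.46, edgeR adjusted p 0.236). Clec4a3, a lectin of the DCIR family, was at 10.3 ± 0.384 CPM on MSA-DA against 10.2 ± 0.112 CPM on MSA-ZW (edgeR adjusted p 0.985). In the run of Clec7a, Olr1 and Clec1a on either side of it had 12 and 74 counts over all 6 libraries. Clec12a, an inhibitory receptor for uric acid crystals at the end of that run, was at 79.0 ± 2.08 CPM on MSA-DA against 91.5 ± 2.94 CPM on MSA-ZW, a fall that passed (log2 -0.21, edgeR adjusted p 0.000377).

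Of 31 other C-type lectins 12 were tested, 3 fell and 0 rose in edgeR, with a median log2 difference of -0.24. The share that passed was 25%, against 13.4% of all tested genes. At an unadjusted p under 0.05, in DESeq2 or in limma, 0 rose. Besides Clec12a, the genes that fell were Cd72 and Clec5a. Cd72, an inhibitory lectin that binds Sema4d, was at 145 ± 3.78 CPM on MSA-DA against 211 ± 4.48 CPM on MSA-ZW (log2 -0.54, edgeR adjusted p 1.07e-14). Clec5a, which signals through Tyrobp (DAP12), was at 249 ± 3.53 CPM on MSA-DA against 299 ± 3.06 CPM on MSA-ZW (log2 -0.26, edgeR adjusted p 3.2e-08). Mrc1, the mannose receptor, had 2, 7 and 7 counts on MSA-DA and 8, 11 and 2 counts on MSA-ZW.

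All 18 genes of C-type lectin signalling were tested, 2 rose and 5 fell, with a median log2 difference of -0.07. Of these genes 38.9% passed, against 13.4% of all tested genes. The adaptor Card9, which carries the Syk signal of Clec7a and Clec4e to NF-kB, was at 37.5 ± 2.14 CPM on MSA-DA against 31.6 ± 0.788 CPM on MSA-ZW (edgeR adjusted p 0.00579), a call with an edgeR adjusted p of 0.0932 once MSA-DA replicate 2 was left out. The receptor-proximal chain Fcer1g was at 79.0 ± 4.47 CPM on MSA-DA against 88.1 ± 1.62 CPM on MSA-ZW (edgeR adjusted p 0.0123), a call lost without MSA-DA replicate 1 or MSA-ZW replicate 2 (edgeR adjusted p 0.1 and 0.0536). Syk and Tyrobp did not pass (edgeR adjusted p 0.307 and 0.704). Those that fell included the inhibitory phosphatase Inpp5d (SHIP-1) and the Src family kinase Fgr. Inpp5d was at 159 ± 2.58 CPM on MSA-DA against 182 ± 6.82 CPM on MSA-ZW (edgeR adjusted p 8.42e-05). Fgr was at 4.01 ± 0.626 CPM on MSA-DA against 6.01 ± 1.1 CPM on MSA-ZW (edgeR adjusted p 0.0122), and lost its call without MSA-DA replicate 3 or MSA-ZW replicate 3 (edgeR adjusted p 0.0871 and 0.0793).

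**Figure D4:**
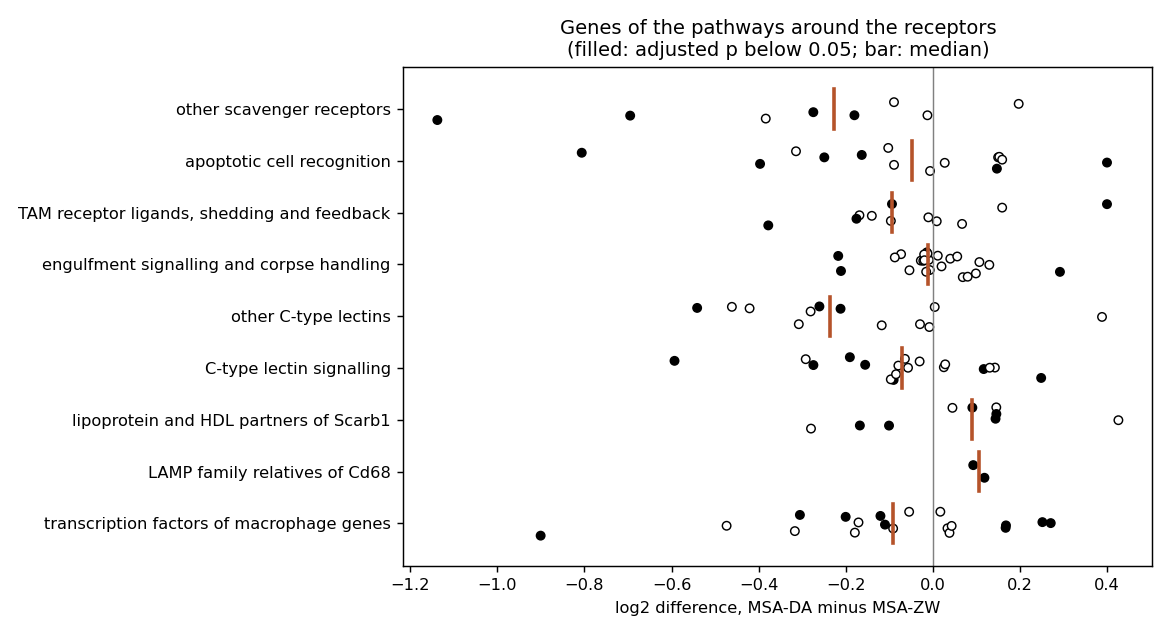
Log2 difference, MSA-DA minus MSA-ZW (horizontal axis), of every tested gene in the lists around the receptors; each dot is a gene, filled where the adjusted p was below 0.05, and the bar is the median of the list. The lowest medians are those of other C-type lectins (-0.24) and other scavenger receptors (-0.23), and the highest are those of the LAMP relatives (0.11) and the lipoprotein partners (0.09). The LAMP median rests on 2 tested genes, and the lists with the lowest medians include genes with few counts, such as Cxcl16 and Clec4n.

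All 19 transcription factors of macrophage genes were tested, 4 rose and 5 fell, with a median log2 difference of -0.09. Of these factors 47.4% passed, against 13.4% of all tested genes. Irf8, a factor of the interferon response and of myeloid identity, was at 53.8 ± 1.73 CPM on MSA-DA against 66.5 ± 0.432 CPM on MSA-ZW (edgeR adjusted p 1.19e-05). Nfe2l2 (NRF2), the factor of the antioxidant response, was at 149 ± 5.01 CPM on MSA-DA against 133 ± 3.24 CPM on MSA-ZW (edgeR adjusted p 0.000858). Hif1a and Klf6 were 1.12-fold and 1.19-fold higher (edgeR adjusted p 4e-05 and 0.000342). Spi1, which encodes PU.1 and drives many macrophage receptor genes, was 1.08-fold higher on MSA-ZW (edgeR adjusted p 0.0266). The Spi1 call was lost after the GC and length correction (log2 -0.03, edgeR adjusted p 0.657), in DESeq2 (adjusted p 0.0583), and without MSA-DA replicate 2 or 3 or MSA-ZW replicate 1 or 3 (edgeR adjusted p 0.0906, 0.116, 0.0835 and 0.0669). Cebpb did not pass (edgeR adjusted p 0.107).

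The genes whose pattern over the 6 libraries was most like that of Clec4d were Eif1, a translation initiation factor, Galc, a lysosomal galactosylceramidase, and Oga, which removes O-linked N-acetylglucosamine. Their root mean square distance from Clec4d, on log2 CPM centred per gene and over 8622 genes compared, was 0.01, 0.02 and 0.02. The genes most like Axl were Furin, a proprotein convertase, Chtf18, a clamp loader subunit, and Ifi211, an interferon-inducible gene of the Ifi200 family, at distances of 0.03, 0.04 and 0.05. The distances describe 6 libraries and were not tested.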

How the data were processed

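RNA-seq counts of 6 libraries, 3 per group by their titles, were analysed. The submitters' processing notes name the build GRCm39 and the tools HISAT2 2.2.1, cutadapt 1.9.1 and bcl2fastq 2.20.0.422. The sources used here do not give the counter, its strandedness or the gene models, so overlapping and antisense genes cannot be told apart. Per the file headers, the authors deposited raw counts per gene and FPKM values; each FPKM equals the count per exonic length and library total to within 0.005. Per the labels, Trizol was used for extraction; selection of messenger RNA is not stated.

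MSA-DA was compared with MSA-ZW by edgeR 4.0.16 quasi-likelihood tests (R 4.3.3; TMM, filterByExpr, no covariate) over 12467 genes, with Benjamini-Hochberg adjusted p-values and a threshold of 0.05. CPM values use TMM-scaled library sizes, the standard error is the log2 difference divided by the square root of F, and the biological coefficient of variation common to all genes was 3.04%. The GC and length correction used smooth offsets per library (mgcv 1.9.3) and covered 12329 genes. GC content came from the longest GENCODE M21 transcript of each gene, and length was the deposited exonic gene length. Alternatives were DESeq2 1.42.0, limma 3.58.1 on log2(FPKM + 1), which understates the change of low genes, other scalings and filters, and each library left out. Scripts were tested on simulated data. Libraries differed beyond sampling noise, and all 6 were kept as samples. The chi-square per degree of freedom was 1.56 to 1.66 between MSA-DA libraries and 2.75 to 4.48 between MSA-ZW libraries. It does not tell whether the libraries were separate cultures. The 95% intervals of log2 differences come from the fit, and the floor of 3 counts covers counting error only.

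The 9 genes and the lists were chosen with earlier results of these data known. Besides the 9, up to 4 passing genes with the smallest p per list, the lectin neighbours on chromosome 6 and the nearest patterns to Clec4d and Axl are named. Some results that this rule selects are not reported here. Scarb2, Colec12, Tyro3, Pros1, Timd4, C1qa, C1qc, Cd300lf, Fcer1g, Syk, Tyrobp, Mrc1, Spi1 and Cebpb were named after their values were seen. Promoter windows are RefSeq GRCm38.p6; Msr1 and Scarb1 are not among them.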

Additional observations from a re-analysis of the deposited data

How the results depend on the processing

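No called gene of the lists or of the 9 receptors changed direction under any alternative run. The 1673 genes called (863 higher, 810 lower on MSA-DA) became 964 (503 and 461) in DESeq2, 696 (355 and 341) in DESeq2 without independent filtering (chosen after seeing the data), 906 (416 and 490) in limma on log2(FPKM + 1), 895 (409 and 486) with a pseudocount of 0.1 and 412 (201 and 211) in limma without a filter on low values, which tested 23514 genes (3262 at an unadjusted p under 0.05). Leaving out 1 library gave 1001 to 1654 genes called, 474 to 819 higher and 527 to 835 lower.

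Among the 9 receptors, 3 fell in the edgeR fit, 1 in DESeq2 with or without independent filtering, 0 in limma without a filter and 2 to 3 with 1 library left out; 1 rose, and 0 in limma without a filter. In that limma fit no receptor passed after adjustment, with adjusted p of 0.0956 for Msr1 (log2 -0.13), 0.145 for Axl (-0.30) and for Scarb1 (-0.14), and 0.126 for Clec4d (0.13). DESeq2 gave Axl no adjusted p (unadjusted 0.00323), and without independent filtering 0.0892 (log2 -0.41). Scarb1 also missed the threshold in DESeq2 (log2 -0.16), without independent filtering (-0.16), and in limma with a pseudocount of 1 (-0.14) or 0.1 (-0.16). With 1 library left out the log2 difference was -0.18 to -0.14 for Scarb1, -0.50 to -0.35 for Axl and 0.11 to 0.16 for Clec4d. The GC and length correction gave -0.12 for Clec7a and 0.090 for Cd68, which then passed, and 0.069 for Clec4d, which did not; the cause of these changes was not tested.

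The numbers for the replicates did not pair the libraries: the correlations of their deviations were 0.01, 0.02 and -0.00. With the replicate block 1594 genes were called (831 higher, 763 lower), and the calls of the 9 receptors were 1 higher and 3 lower as without it.

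Counts of list genes also moved. Other scavenger receptors lower numbered 1 in DESeq2 (both forms) and in the 3 limma fits on FPKM, and 2 to 4 with 1 library left out. Apoptotic cell recognition had 1 higher in both DESeq2 forms and limma without a filter, and 2 lower in DESeq2 and in limma without a filter; leaving out a library gave 1 to 2 higher and 4 to 6 lower. Engulfment genes higher were 2 in DESeq2 and with the GC correction, 3 in limma-voom with library weights, 0 in limma without a filter and 1 to 3 with a library left out; those lower were 1 in DESeq2 without independent filtering, limma without a filter and the GC correction. C-type lectin signalling genes higher were 1 in DESeq2, both filtered limma fits on FPKM and the GC correction, and 0 in DESeq2 without independent filtering and unfiltered limma; those lower were 3 in DESeq2 and limma with a pseudocount of 1, 2 in DESeq2 without independent filtering and limma with 0.1, and 0 in unfiltered limma. Leaving out a library gave 0 to 3 higher and 3 to 5 lower there. TAM genes higher were 0 in both DESeq2 forms and unfiltered limma and 0 to 1 with a library left out; those lower were 1 in unfiltered limma and 3 to 4 with a library left out. Lipoprotein partners were 1 higher and 1 lower in the limma fits on FPKM and 1 lower in DESeq2 without independent filtering and with the GC correction, and 1 to 3 higher and 1 to 2 lower with a library left out. LAMP relatives higher were 1 in filtered limma on FPKM and the GC correction, 0 in unfiltered limma and 1 to 2 with a library left out. Transcription factors lower were 1 in both DESeq2 forms and the limma fits on FPKM and 2 to 5 with a library left out, and those higher were 0 in unfiltered limma. With 3 libraries a group, receptors under the floor of 3 counts could not be compared.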
